A study of Homo sapiens with 18 samples.

Results

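The nucleic acid sensors that an introduced siRNA could meet in a cell were examined in THP-1, a human monocytic leukaemia cell line. The 10 genes were chosen by symbol as the receptors for RNA or DNA and their immediate adaptors: RIGI, IFIH1, DHX58, MAVS, EIF2AK2, TLR3, TLR7, TLR8, CGAS and STING1. The count table held 63677 genes, and all 10 sensors were matched by Ensembl identifier. All 10 had counts and all 10 passed the filter on low counts, which left 16678 genes to test.

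The series tested a knockdown of TRAFD1, a zinc finger protein, with 18 libraries in 6 groups of 3. KD cells received an siRNA against TRAFD1 at 25 nM, SCR cells received a scrambled control siRNA at the same concentration, and WT cells received no siRNA. At 72 h after transfection, each condition was either stimulated with lipopolysaccharide (LPS), a bacterial cell wall component that signals through TLR4, at 10 ng/ml for 4 h, or left unstimulated. The labels disagree on WT: some call these cells untreated, whereas the treatment protocol describes the transfection mix without siRNA. Transfection reagent and scrambled siRNA therefore cannot be told apart in a comparison of SCR with WT, and TRAFD1 siRNA, any siRNA and reagent cannot be told apart in a comparison of KD with WT. KD against SCR is the comparison in which both sides received an siRNA. THP-1 is 1 cell line. Treatments were done in triplicate per the labels, which do not say whether from separate cultures on separate days or from 1 culture, so that p-values measure the spread between these libraries, which may be technical.

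Cells hold several families of receptors for foreign nucleic acid. In the cytosol, RIG-I (encoded by RIGI) binds short RNA duplexes with a 5′ triphosphate and MDA5 (encoded by IFIH1) binds long ones. Both signal through MAVS on the outer mitochondrial membrane, and LGP2 (encoded by DHX58), which lacks the signalling domains, tunes both. PKR (encoded by EIF2AK2) is a kinase that binds duplex RNA and halts translation by phosphorylating the initiation factor eIF2 alpha. TLR3 reads duplex RNA in endosomes, and TLR7 and TLR8 read single-stranded RNA there. cGAS (encoded by CGAS) binds duplex DNA and makes a cyclic dinucleotide that activates STING (encoded by STING1) on the endoplasmic reticulum. The routes through MAVS, the endosomal receptors and STING lead to type I interferon and to interferon-stimulated genes, and several sensor genes are themselves interferon-stimulated.

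The sequence that the knockdown siRNA was designed against is shown because it is the designed molecule whose sensing is at issue. The 21 bases lie on the plus strand of GRCh37 at chr12:112589676-112589696, in the coding sequence in exon 10 of 12 of TRAFD1.
TRAFD1 siRNA target: cccagccgacccattaacaat
Of 254413 annotated transcripts searched, only those of TRAFD1 held the whole target, and 0 transcripts of the 10 sensors held it. The target had 11 G or C letters. The sense strand held 3 U and the antisense strand 7 U. The motifs UGUGU and GUCCUUCAA, known from immunostimulatory siRNAs, were found 0 times in the sense strand and 0 times in the antisense strand. The scrambled siRNA's sequence was not analysed here.

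RefSeq promoter windows, from 250 bases before to 50 bases after the transcription start, were given for 6 of the 10 sensors in GRCh38.p14. Those of DHX58, TLR7, CGAS and STING1 were not analysed here. The windows were searched on both strands for GAAA, any 2 bases and GAAA again, the core of the interferon-stimulated response element to which interferon regulatory factors bind. It occurred in 1255 of 35116 promoter windows (3.57%) and in 3 of the 6 sensor windows, those of EIF2AK2, IFIH1 and TLR3. The windows of EIF2AK2 and IFIH1, both of which rose with LPS in the results that follow, and of RIGI, which was not called, are shown with the matches in capitals. They are all on the minus strand, at chr2:37156931-37157230, chr2:162318635-162318934 and chr9:32526147-32526446.
EIF2AK2: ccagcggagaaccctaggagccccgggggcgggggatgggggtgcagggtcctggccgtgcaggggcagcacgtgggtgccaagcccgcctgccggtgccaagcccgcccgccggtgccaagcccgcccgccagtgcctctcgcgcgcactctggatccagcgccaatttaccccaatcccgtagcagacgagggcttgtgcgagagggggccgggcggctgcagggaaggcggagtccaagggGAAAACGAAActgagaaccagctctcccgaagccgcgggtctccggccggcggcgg
IFIH1: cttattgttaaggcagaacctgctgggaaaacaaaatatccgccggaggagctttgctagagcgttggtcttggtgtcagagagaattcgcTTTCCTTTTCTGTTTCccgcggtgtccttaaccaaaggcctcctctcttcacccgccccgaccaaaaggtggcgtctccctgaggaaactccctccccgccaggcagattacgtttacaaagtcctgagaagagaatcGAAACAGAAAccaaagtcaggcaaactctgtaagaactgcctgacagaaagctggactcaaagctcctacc
RIGI: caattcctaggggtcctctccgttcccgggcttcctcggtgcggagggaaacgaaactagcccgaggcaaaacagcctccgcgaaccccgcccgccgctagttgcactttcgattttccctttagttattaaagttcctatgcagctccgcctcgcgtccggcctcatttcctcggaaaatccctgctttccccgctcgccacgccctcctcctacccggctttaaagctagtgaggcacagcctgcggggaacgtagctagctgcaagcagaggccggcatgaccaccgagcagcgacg
EIF2AK2 held 1 match, which began 6 bases before the start. IFIH1 held 3 matches, 1 beginning 21 bases before the start and 2 on the opposite strand that overlap each other. TLR3 held 1 match, on the opposite strand, and was not called with LPS in any condition. RIGI, MAVS and TLR8 held 0 matches in their windows, and of these TLR8 was called with LPS, in KD only. The windows shown are a selection, so they do not show whether a match goes with an LPS response. A match of letters does not show a bound site, and the absence of these letters says nothing of the factor.

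Counts came from the 3′ end of polyadenylated RNA, within 500 bases per gene, so that levels were not corrected for length. Transcripts that end outside the annotated window of their gene would not be counted, which limits the comparison of levels between genes. IKBKE and IKBKG, for example, had 0 counts in every library. How many transcripts were missed in this way was not tested. Levels are given as counts per 1000000 counts of the library (CPM), after TMM scaling of the totals. The libraries held between 8206023 and 22344279 counts. A listed 0 would allow up to 3 counts, equal to 0.133 to 0.378 CPM, for counting error only. TRAFD1 itself, the check of the knockdown, was at 22.2, 21.2 and 18.3 CPM in WT, 26.8, 20.1 and 24.3 CPM in SCR, and 11.6, 5.37 and 9.02 CPM in KD without LPS. With LPS it was at 19.2, 20.3 and 11.6 CPM in WT, 21.9, 27.5 and 18.7 CPM in SCR, and 15.8, 14.0 and 13.8 CPM in KD. Without LPS, TRAFD1 was lower after its own siRNA than after the scrambled one (log2 fold change -1.45, adjusted p = 0.0277 by edgeR), and with LPS the fold change was -0.65 (adjusted p = 0.262). Of 12 monocyte and myeloid markers 11 were tested, and CEBPA had at most 2 counts per library. The summed level of the 12 was 1024 to 1156 CPM in WT, 1190 to 1326 CPM in SCR and 1273 to 1407 CPM in KD without LPS, and 1105 to 1362 CPM over the 9 libraries with LPS. Several defining markers of other cells were at or near 0: CD3D and CD3E had at most 2 counts and 1 count in any library, CLEC4C and HBB had 0 counts, and MS4A1 had at most 2. The summed level of the erythroid markers reached at most 0.113 CPM in a library, that of the epithelial markers 0.403 CPM and that of the T cell markers 0.616 CPM. TCF4, listed as a plasmacytoid dendritic cell marker, was above these levels, at 13.2 to 37.1 CPM. Values are for all cells of a culture together, so that fewer cells expressing a gene and less RNA per cell cannot be told apart.

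The sensors spanned a wide range of levels in unstimulated WT cells. PKR transcripts were the most abundant at 228 ± 32.2 CPM (SD, n = 3), followed by STING1 at 204 ± 35.5 CPM, and these neighbours overlapped. IFIH1 at 109 ± 13.5 CPM and RIGI at 107 ± 2.57 CPM came next and also overlapped. CGAS followed at 61.0 ± 19.8 CPM and DHX58 at 25.6 ± 3.39 CPM, and neither overlapped with its neighbours in the order. MAVS, the shared adaptor, was counted at 6.62 ± 0.856 CPM, far below the receptors that signal through it. Transcripts of MAVS that end outside its counting window would be missing from this value. The endosomal receptors were lowest: TLR7 at 2.38 ± 0.969 CPM, TLR8 at 1.41 ± 0.345 CPM and TLR3 at 0.598 ± 0.142 CPM. TLR7 and TLR8 overlapped, whereas TLR3 lay below TLR8. TLR3 had only 1 to 15 counts in any library and TLR8 8 to 81, so that little can be said of changes in either, and their fold changes carry wide intervals.

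**Figure D1:**
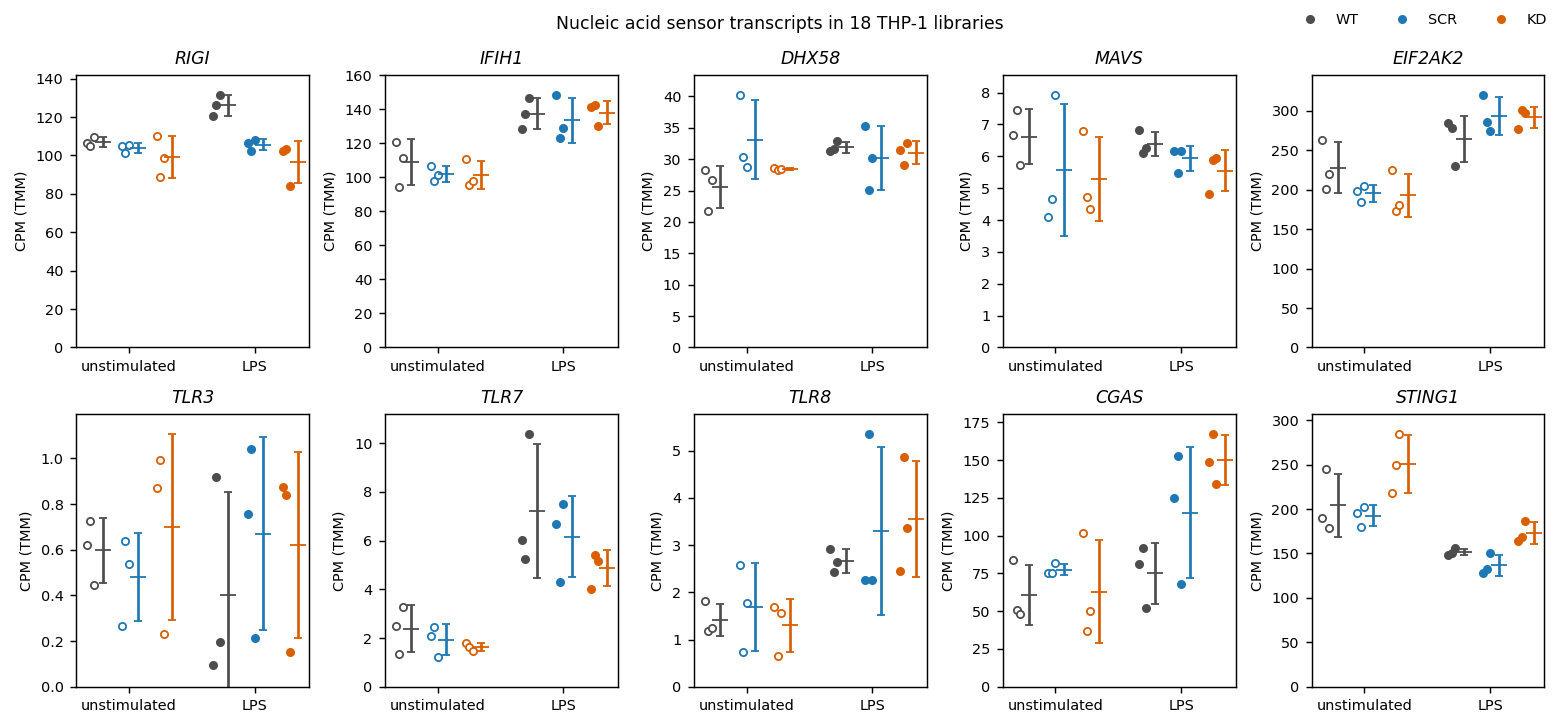
Level of the 10 sensor transcripts (CPM with TMM-scaled totals, linear axis from 0 that differs between panels) in WT (grey), SCR (blue) and KD (orange) without LPS (open circles) and with LPS (filled circles). Each circle is 1 library and the bars give the mean ± SD of 3 libraries (a bar of TLR3 is cut at 0); TLR7 rises with LPS in all 3 conditions and STING1 falls.

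The first question was whether cells that had received the scrambled siRNA differed from WT cells in their sensor transcripts. Without LPS, 0 of 10 sensors passed an adjusted p of 0.05 in SCR against WT by edgeR, against 3.23% of the 16678 genes tested. By DESeq2 0 of 10 passed too. Shares over all genes are by edgeR throughout, and counts by DESeq2 differed, as the closing section gives. One sensor, DHX58, had an unadjusted p under 0.05. The median log2 fold change of the sensors was -0.09, beside 0.01 over all genes tested.

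RIGI and IFIH1 gave the narrowest intervals. RIGI was at 106, 105 and 110 CPM in WT and at 105, 101 and 106 CPM in SCR without LPS. The libraries overlapped, the log2 fold change was -0.04, and its 95% interval ran from -0.24 to 0.16. A change of RIGI outside 0.846 to 1.12-fold was thus outside the interval. IFIH1, at 121, 94.2 and 112 CPM in WT and 107, 97.8 and 101 CPM in SCR, gave -0.09 with an interval from -0.31 to 0.12. DHX58 was at 28.3, 21.8 and 26.6 CPM in WT and at 40.3, 30.3 and 28.8 CPM in SCR. It was the 1 sensor of 10 whose libraries did not overlap here, beside 22.6% of all genes tested, with a log2 fold change of 0.37 (95% interval 0.08 to 0.67), an unadjusted p of 0.015 and an adjusted p of 0.156. MAVS gave -0.25, with an interval from -0.75 to 0.24.

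EIF2AK2 was at 264, 201 and 220 CPM in WT and at 198, 184 and 205 CPM in SCR without LPS, with overlapping libraries and a log2 fold change of -0.22 (95% interval -0.46 to 0.02, adjusted p = 0.334). The last 500 bases of EIF2AK2 overlap the gene GPATCH11 on the opposite strand, in a later annotation than the one used for counting. The overlap with the counting window of GPATCH11 was not measured. The strand setting of the counting is not given in the sources used here, so some reads counted for EIF2AK2 may come from GPATCH11. In its own row GPATCH11 was at 15.3 to 33.0 CPM over the 18 libraries. For the endosomal receptors the intervals were wide: TLR7 gave -0.34 (interval -1.07 to 0.39), TLR8 0.31 (interval -0.64 to 1.25) and TLR3 -0.34 (interval -1.98 to 1.31). A change of TLR3 of up to 2.48-fold upward lies within its interval. In the DNA-sensing pair, CGAS gave 0.34 (interval -0.29 to 0.97) and STING1 -0.08 (interval -0.32 to 0.15).

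With LPS, 0 of 10 sensors passed the test in SCR against WT by edgeR, against 0.114% of all genes, and 0 passed by DESeq2. By edgeR 1 sensor had an unadjusted p under 0.05. That was RIGI, at 120, 126 and 132 CPM in WT and 106, 103 and 108 CPM in SCR. All 3 SCR libraries lay below all 3 WT libraries, and RIGI was the 1 sensor of 10 without overlap, beside 22.8% of all genes tested. Its log2 fold change was -0.25 (95% interval -0.46 to -0.05, unadjusted p = 0.0157, adjusted p = 0.263). CGAS was at 81.3, 91.5 and 52.3 CPM in WT and 125, 153 and 67.7 CPM in SCR, where replicate 6 was the lowest in both, with a log2 fold change of 0.61 (interval -0.01 to 1.24, adjusted p = 0.375). With low-count genes kept, CGAS passed the test here (adjusted p = 0.000193), while the range of its adjusted p over the other alternatives reached 0.817. The other sensors lay between -0.23 for TLR7 and 0.66 for TLR3, and the median over the 10 was -0.07, beside 0.01 over all genes. Libraries with the same number deviated together in this comparison, and with the number as a block 0 sensors were called while the count over all genes went from 19 to 135.

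The genes that act with the sensors were followed in lists of cofactors, kinases and outputs, 64 genes in all, of which 59 were tested. In SCR against WT without LPS, 1 rose and 1 fell by edgeR, beside 3.23% of all genes called in either direction, with a median log2 fold change of -0.01. By edgeR 15 had an unadjusted p under 0.05, beside 2866 of all 16678 genes. DESeq2 called 4 of the 59: ADAR, CXCL10, PPP1R15A (0.49) and TRAF3 (0.29). By edgeR PPP1R15A gave 0.49 (adjusted p = 0.0672) and TRAF3 0.30 (adjusted p = 0.102). CXCL10, a chemokine made in response to interferon and to NF-kB, was at 3.73, 0.545 and 2.49 CPM in WT and 7.73, 10.8 and 8.93 CPM in SCR and rose by 1.89 ± 0.28 on the log2 scale (SE, adjusted p = 0.000615). ADAR, an RNA-editing enzyme that marks cellular duplexes, fell by 0.34 ± 0.07 (adjusted p = 0.011). TNF, an inflammatory cytokine outside the lists, was at 12.7, 18.7 and 16.2 CPM in WT and 46.9, 47.9 and 35.1 CPM in SCR, a log2 fold change of 1.46 (adjusted p = 9.44e-06). The other 13 genes of the interferon output list did not pass the test. Monocyte markers also differed in this comparison: CD14, the LPS co-receptor, and FCER1G, an Fc receptor chain, rose by 1.14 ± 0.20 (adjusted p = 0.00311) and 0.45 ± 0.10 (adjusted p = 0.0112). These were 2 of the 11 tested, beside 3.23% of all genes. The part of CD14 and FCER1G in the other changes was not tested. IFIT1, an antiviral protein that binds foreign RNA, was at 225, 235 and 207 CPM in WT and 193, 198 and 205 CPM in SCR (adjusted p = 0.399). ISG15, a ubiquitin-like protein induced by interferon, was at 185, 306 and 268 CPM in WT and 318, 310 and 354 CPM in SCR, with a log2 fold change of 0.37 (adjusted p = 0.163). IFNB1, the gene of interferon beta, had 3 to 69 counts per library over all 18 libraries, and none of the 11 comparisons of IFNB1 passed the test (lowest adjusted p = 0.149). With LPS, 0 of the 59 genes were called in SCR against WT by edgeR, beside 0.114% of all genes, and 0 by DESeq2. By edgeR 16 had an unadjusted p under 0.05, beside 2285 of all 16678 genes.

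The next question was whether the TRAFD1 siRNA changed the sensors beyond the scrambled one. In KD against SCR, 0 of 10 sensors passed the test without LPS and 0 with LPS by edgeR, against 0.0660% and 0.00% of all genes. By DESeq2, whose counts over all genes were larger, 0 of 10 passed in each state too. Of the 59 list genes 17 without LPS and 10 with LPS had an unadjusted p under 0.05 by edgeR, beside 2107 and 1963 of all 16678 genes. By edgeR 0 of the 59 passed in either state, and DESeq2 called 3 and 0. The 3, named here after their values were seen, were SAMHD1, OAS3 and IFIT2, all higher in KD. STING1 was the 1 sensor with an unadjusted p under 0.05 in each state. It was at 196, 180 and 202 CPM in SCR and at 219, 249 and 284 CPM in KD without LPS, and at 128, 132 and 150 CPM in SCR and 164, 168 and 187 CPM in KD with LPS. All 3 KD libraries lay above all 3 SCR libraries in each state. Without overlap in either direction were 2 of 10 sensors without LPS, beside 15.1% of all genes tested, and 1 of 10 with LPS, beside 21.5%. The log2 fold changes were 0.38 (95% interval 0.14 to 0.62, unadjusted p = 0.00327, adjusted p = 0.16) and 0.34 (interval 0.10 to 0.58, unadjusted p = 0.00767, adjusted p = 0.253). For RIGI, IFIH1 and EIF2AK2 the intervals of KD against SCR stayed within -0.33 and 0.26 in both states.

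**Figure D2:**
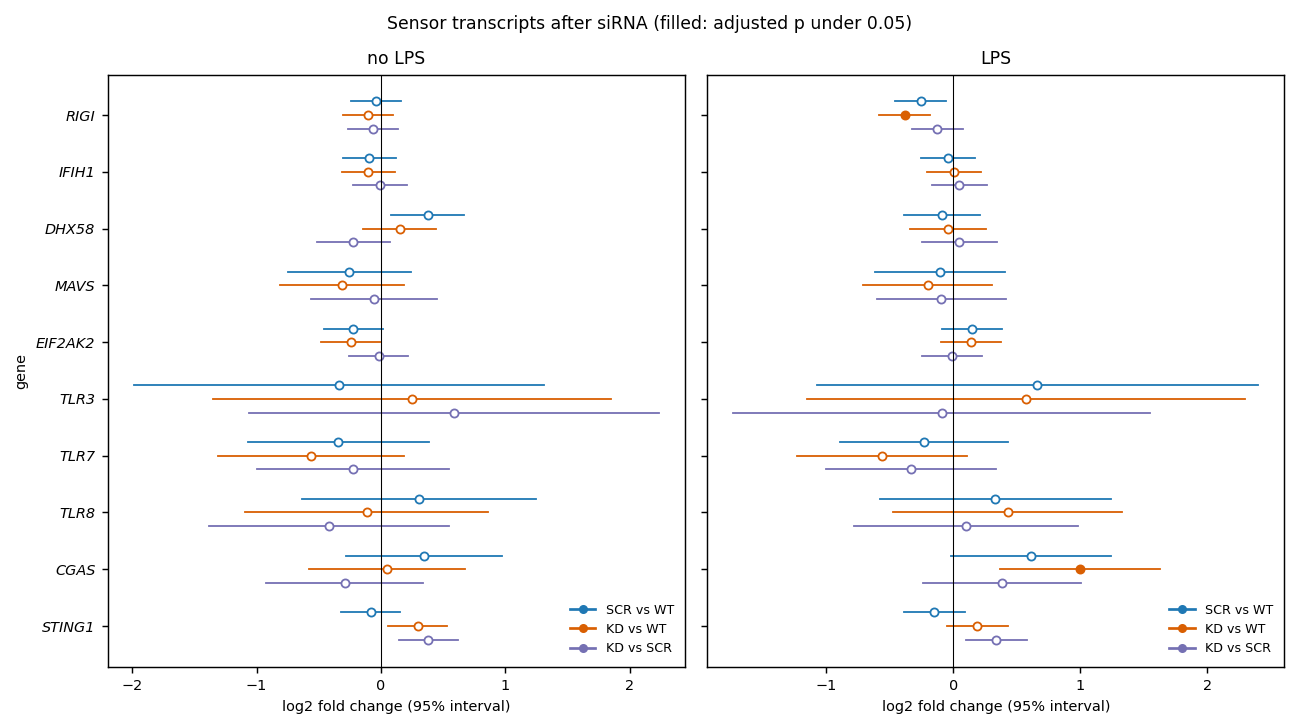
Log2 fold change of the 10 sensor transcripts (points) with its 95% interval (lines) in SCR against WT (blue), KD against WT (orange) and KD against SCR (purple), without LPS on the left and with LPS on the right. Filled points have an adjusted p under 0.05 by edgeR; only RIGI and CGAS in KD against WT with LPS are filled.

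KD was also compared with WT, a comparison that shares its WT libraries with SCR against WT and its KD libraries with KD against SCR. Without LPS, 0 of 10 sensors were called by edgeR, against 11.7% of all genes, and 0 were called by DESeq2. By edgeR 2 sensors had an unadjusted p under 0.05. These were STING1 (log2 fold change 0.30, adjusted p = 0.1) and EIF2AK2 (-0.24, adjusted p = 0.186). STING1 was called without WT replicate 2 (0.44, adjusted p = 0.0124), and both were called without KD replicate 1, STING1 at 0.39 (adjusted p = 0.0349) and EIF2AK2 at -0.37 (adjusted p = 0.042).

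With LPS, 2 of 10 sensors were called in KD against WT, against 10.8% of all genes: 1 was higher, beside 6.29% of all genes, and 1 was lower, beside 4.55%. TRAFD1 itself gave -0.23 in this comparison (adjusted p = 0.563 by edgeR), with overlapping libraries. Without LPS it gave -1.23 in KD against WT (adjusted p = 0.00156). RIGI was at 120, 126 and 132 CPM in WT and 103, 104 and 84.2 CPM in KD. The groups did not overlap, and RIGI fell by 0.38 ± 0.10 on the log2 scale (SE, adjusted p = 0.0166). CGAS was at 81.3, 91.5 and 52.3 CPM in WT and 148, 167 and 134 CPM in KD, again without overlap, and rose by 1.00 ± 0.30 (adjusted p = 0.0384). Leaving out 1 library ended the call of RIGI in 2 of 6 fits, without WT replicate 6 (adjusted p = 0.0866) and without KD replicate 6 (adjusted p = 0.0909). The call of CGAS was lost in 5 of 6, all but the one without WT replicate 5 (adjusted p 0.0607 to 0.197), and by DESeq2 (adjusted p = 0.0538). STING1 and MAVS libraries did not overlap either, but neither passed the test (adjusted p = 0.308 and 0.655). In all 4 of 10 sensors did not overlap, beside 35.0% of all genes tested.

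Among the genes that act with the sensors, 9 of 59 rose and 5 fell in KD against WT without LPS, beside 5.85% of all genes higher and 5.85% lower. In the interferon output list, 4 of 14 rose and 1 fell. IFIT2, an antiviral protein related to IFIT1, rose by 0.78 ± 0.13 (adjusted p = 0.000738). IFNL1, a type III interferon with only 13 to 74 counts per library, rose by 1.42 ± 0.36 (adjusted p = 0.0143). CXCL10 rose by 1.03 ± 0.30 (adjusted p = 0.0308) and ISG15, with overlapping libraries, by 0.44 ± 0.14 (adjusted p = 0.0476). CMPK2, a mitochondrial nucleotide kinase, fell by 0.33 ± 0.08 (adjusted p = 0.00916). TNF, outside the lists, rose by 1.45 ± 0.16 (adjusted p = 1.1e-05), as it did in SCR against WT. In KD against SCR without LPS neither TNF nor CXCL10 passed the test (adjusted p = 0.996 and 0.172). The cofactors ADAR and TRIM25, a ubiquitin ligase of RIG-I, fell by 0.44 ± 0.07 (adjusted p = 0.000481) and 0.38 ± 0.08 (adjusted p = 0.00356). OAS3, which makes the second messenger of RNase L on duplex RNA, rose by 0.43 ± 0.10 (adjusted p = 0.0101). DDIT3 and PPP1R15A, induced when eIF2 alpha is phosphorylated, rose by 0.60 ± 0.13 (adjusted p = 0.00411) and 0.52 ± 0.14 (adjusted p = 0.022). UNC93B1, the chaperone that carries the endosomal receptors to endosomes, rose by 0.66 ± 0.14 (adjusted p = 0.00409), while IFI16, a DNA-binding protein, fell by 0.49 ± 0.16 (adjusted p = 0.0472). The median over the 59 genes was 0.04, beside -0.01 over all genes. With LPS, 4 of the 59 rose and 9 fell, beside 6.29% of all genes higher and 4.55% lower, among them IRF1, a transcription factor of interferon genes, which fell by 0.56 ± 0.10 (adjusted p = 0.00293), and TANK, a scaffold of the kinase TBK1, which rose by 1.07 ± 0.24 (adjusted p = 0.00823). TRIM25 and CMPK2 fell with LPS too, by 0.41 ± 0.08 (adjusted p = 0.00341) and 0.44 ± 0.08 (adjusted p = 0.00288).

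**Figure D3:**
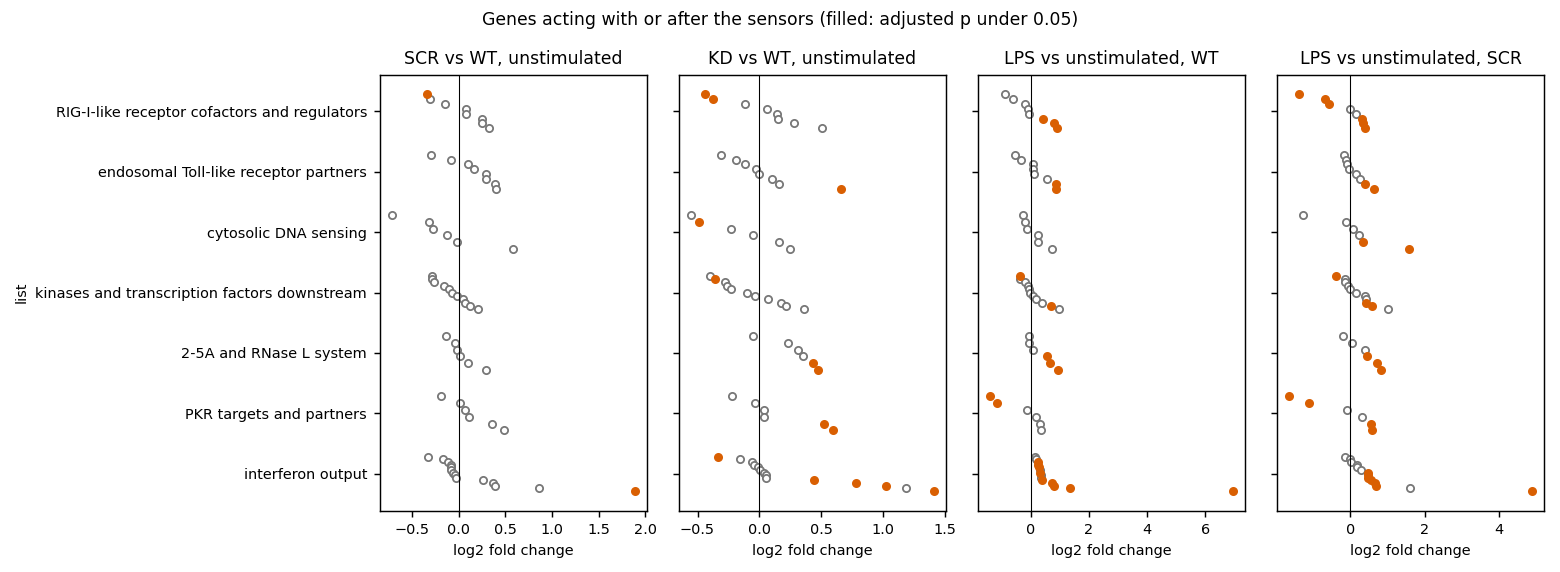
Log2 fold change of the 59 tested genes that act with or after the sensors (1 circle per gene, by list) in 4 comparisons; the x axes differ between panels. Filled orange circles have an adjusted p under 0.05 by edgeR; in SCR against WT without LPS only CXCL10 at 1.89 and ADAR at -0.34 are filled, and the outermost circle under LPS is CXCL10.

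More sensors were called after LPS than in any comparison of siRNA conditions. In WT 3 of 10 sensors were called, against 14.3% of all genes: 2 were higher, beside 7.01% of all genes, and 1 was lower, beside 7.26%. In SCR it was 4 of 10, against 17.2%, with 3 higher beside 8.64% and 1 lower beside 8.56%. In KD it was 6 of 10, against 11.5%, with 5 higher beside 6.41% and 1 lower beside 5.05%. The libraries with and without LPS did not overlap for 6 of 10 sensors in WT, beside 32.5% of all genes tested, for 4 of 10 in SCR, beside 37.3%, and for 7 of 10 in KD, beside 25.4%. The median log2 fold change of the sensors was 0.27 for WT, 0.45 for SCR and 0.28 for KD, beside -0.03, -0.03 and 0 (to 2 decimals) over all genes. IFIH1, TLR7 and STING1 passed in all 3 conditions, EIF2AK2 in SCR and KD, and TLR8 and CGAS in KD. TCF4, a transcription factor of plasmacytoid dendritic cells, which use TLR7, rose too, by 0.63 ± 0.15, 0.80 ± 0.15 and 0.57 ± 0.15 in WT, SCR and KD (adjusted p = 0.00558, 0.000828 and 0.0169), while the markers CLEC4C and LILRA4 had 0 and at most 7 counts in any library. CD14 fell in all 3, by 0.74 ± 0.21, 1.53 ± 0.21 and 1.07 ± 0.21 (adjusted p = 0.0224, 2.31e-05 and 0.00138). The part of these in the sensor values was not tested.

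TLR7 had the largest change, on only 15 to 106 counts per library. It went from 2.49, 1.36 and 3.29 CPM to 6.03, 5.26 and 10.4 CPM in WT, from 2.09, 2.47 and 1.23 to 6.68, 4.31 and 7.51 CPM in SCR, and from 1.81, 1.65 and 1.48 to 4.02, 5.40 and 5.18 CPM in KD. The groups did not overlap in any condition. The fold changes were 2.94 (95% interval 1.82 to 4.74, adjusted p = 0.00241), 3.18 (1.94 to 5.22, adjusted p = 0.00182) and 2.95 (1.77 to 4.90, adjusted p = 0.00549). TLR7 rose above MAVS in mean level in WT and SCR with LPS, although their libraries overlapped. TLR8, its relative on the X chromosome, went from 1.68, 0.661 and 1.56 to 2.45, 4.86 and 3.35 CPM in KD, a log2 fold change of 1.44 (interval 0.50 to 2.38, adjusted p = 0.0417). That call was lost without KD replicates 2, 3, 5 or 6, each left out alone (adjusted p 0.0746 to 0.195), and with KD fitted alone (adjusted p = 0.097). TLR8 gave 0.90 in WT (adjusted p = 0.21) and 0.93 in SCR (adjusted p = 0.16). TLR3 stayed at 0.0973 to 1.04 CPM with LPS, with intervals that spanned 0 in every condition.

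IFIH1 rose in all 3 conditions, from 121, 94.2 and 112 to 129, 137 and 147 CPM in WT, from 107, 97.8 and 101 to 149, 123 and 129 CPM in SCR, and from 111, 95.8 and 97.7 to 141, 142 and 130 CPM in KD. The groups did not overlap in any of them. The log2 fold changes were 0.34 (95% interval 0.12 to 0.55, adjusted p = 0.0334), 0.39 (0.17 to 0.60, adjusted p = 0.0123) and 0.44 (0.23 to 0.66, adjusted p = 0.0072). The call in WT was lost without WT replicate 2, 3, 5 or 6 (adjusted p 0.0715 to 0.163), with low-count genes kept (adjusted p = 0.0767) and with WT fitted alone (adjusted p = 0.0505). The call in SCR was lost without SCR replicate 4 (adjusted p = 0.0837).

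The other RIG-I-like receptors did not pass the test. RIGI went from 106, 105 and 110 to 120, 126 and 132 CPM in WT, without overlap, a log2 fold change of 0.24 (95% interval 0.04 to 0.44, adjusted p = 0.113). In SCR and KD the fold changes of RIGI were 0.02 (interval -0.18 to 0.22) and -0.04 (interval -0.24 to 0.16). DHX58 gave 0.31 in WT (interval 0.02 to 0.61, adjusted p = 0.159), -0.15 in SCR and 0.13 in KD. MAVS stayed between -0.04 and 0.10, with intervals from -0.54 to 0.61 over the 3 conditions.

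EIF2AK2 rose in SCR from 198, 184 and 205 to 321, 286 and 274 CPM and in KD from 225, 173 and 181 to 277, 301 and 297 CPM. Neither pair of groups overlapped, and the fold changes were 1.50 (95% interval 1.27 to 1.77, adjusted p = 0.0012) and 1.51 (1.28 to 1.78, adjusted p = 0.00133). In WT it went from 264, 201 and 220 to 285, 279 and 230 CPM, with overlap, a log2 fold change of 0.21 (interval -0.02 to 0.45, adjusted p = 0.241). GPATCH11, the gene that overlaps the last 500 bases of EIF2AK2, rose in SCR from 16.6, 18.2 and 18.9 to 28.3, 33.0 and 32.7 CPM (log2 fold change 0.81, adjusted p = 0.00211). It gave 0.04 in WT (adjusted p = 0.92) and 0.18 in KD (adjusted p = 0.545). Its part in the values of EIF2AK2 was not tested.

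STING1 fell in all 3 conditions. It went from 190, 245 and 179 to 149, 151 and 156 CPM in WT, from 196, 180 and 202 to 128, 132 and 150 CPM in SCR, and from 219, 249 and 284 to 164, 168 and 187 CPM in KD, without overlap in any of them. The log2 fold changes were -0.43 (95% interval -0.67 to -0.19, adjusted p = 0.0141), -0.49 (-0.73 to -0.26, adjusted p = 0.00477) and -0.53 (-0.77 to -0.30, adjusted p = 0.00366). The call in WT was lost without WT replicate 2 (-0.28, adjusted p = 0.106), 4 (adjusted p = 0.0636) or 5 (adjusted p = 0.0537).

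CGAS, which makes the ligand of STING, moved the other way. In KD it went from 102, 36.9 and 50.3 to 148, 167 and 134 CPM, a log2 fold change of 1.25 (95% interval 0.62 to 1.88, adjusted p = 0.00953). The first KD library was far above the other 2 without LPS, and the groups did not overlap. Leaving out KD replicate 3 gave an adjusted p of 0.0586. In WT and SCR the fold changes of CGAS were 0.30 (interval -0.33 to 0.93, adjusted p = 0.585) and 0.57 (interval -0.05 to 1.20, adjusted p = 0.212), with overlapping libraries in both. In SCR CGAS was called with low-count genes kept (adjusted p = 0.000127).

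**Figure D4:**
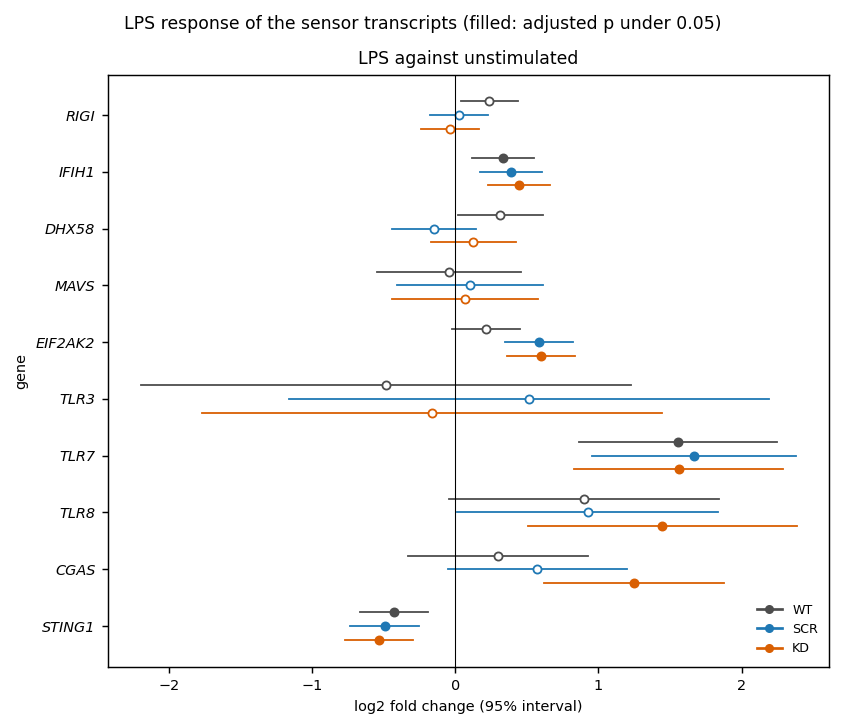
Log2 fold change of the 10 sensor transcripts between LPS and unstimulated cells (points) with its 95% interval (lines) in WT (grey), SCR (blue) and KD (orange). Filled points have an adjusted p under 0.05 by edgeR; IFIH1 (0.34 to 0.44), TLR7 (1.55 to 1.67) and STING1 (-0.53 to -0.43) are filled in all 3 conditions.

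Whether the LPS response differed between conditions was tested with an interaction term. Between SCR and WT 0 of 10 sensors differed by edgeR, against 0.234% of all genes, and 0 differed by DESeq2. By edgeR 2 sensors had an unadjusted p under 0.05. For EIF2AK2 the response was larger in SCR by 0.37 on the log2 scale (95% interval 0.04 to 0.71, unadjusted p = 0.0318, adjusted p = 0.468). For DHX58 the difference was -0.46 (interval -0.88 to -0.04, unadjusted p = 0.0317, adjusted p = 0.468). Between KD and SCR 0 of 10 differed by edgeR, against 0.00% of all genes, and 0 differed by DESeq2. By edgeR 0 sensors had an unadjusted p under 0.05. The response of CGAS was larger in KD by 0.68 (interval -0.21 to 1.56, adjusted p = 0.725), and this passed the test only with low-count genes kept (adjusted p = 0.0436). EIF2AK2, called in SCR but not in WT, was thus not shown to respond differently there. The difference between KD and WT, which bears on TLR8, CGAS and EIF2AK2 in KD, was not tested.

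The genes that act with the sensors responded to LPS in both directions. Of the 59 tested, 18 rose and 3 fell in WT, 21 rose and 6 fell in SCR, while KD had 15 that rose and 3 that fell, with medians of 0.18, 0.24 and 0.11 on the log2 scale. Over all genes 7.01%, 8.64% and 6.41% were higher and 7.26%, 8.56% and 5.05% lower in WT, SCR and KD. Among the cofactors of RIG-I, TRIM25 rose by 0.42 ± 0.08, 0.34 ± 0.08 and 0.38 ± 0.08 in WT, SCR and KD (adjusted p = 0.000647, 0.00412 and 0.00245). ZC3HAV1, a zinc finger protein that binds viral RNA, rose by 0.90 ± 0.10, 0.40 ± 0.10 and 0.32 ± 0.10 (adjusted p = 7.59e-07, 0.00568 and 0.0336). Of the endosomal receptor partners, TRAF3, a ubiquitin ligase on the way to interferon, rose by 0.86 ± 0.10, 0.38 ± 0.10 and 0.77 ± 0.10 (adjusted p = 1.61e-06, 0.00944 and 1.18e-05). TICAM1, the adaptor of TLR3, rose by 0.87 ± 0.17 in WT (adjusted p = 0.00123) and 0.75 ± 0.17 in KD (adjusted p = 0.00595). In SCR TICAM1 gave 0.14 (adjusted p = 0.622). In the PKR list ATF4 and DDIT3, transcription factors of the stress response downstream of eIF2 alpha, fell in all 3 conditions, ATF4 by 1.41 ± 0.10, 1.64 ± 0.10 and 1.46 ± 0.10 in the order WT, SCR, KD (adjusted p = 7.05e-10, 1.54e-10 and 1.06e-09). DNAJC3, an inhibitor of PKR, rose by 0.58 ± 0.14 in SCR (adjusted p = 0.00653) and 0.68 ± 0.14 in KD (adjusted p = 0.00309). In WT DNAJC3 gave 0.18 (adjusted p = 0.469). OAS3 rose in all 3 conditions, by 0.54 ± 0.10, 0.70 ± 0.11 and 0.47 ± 0.10 (adjusted p = 0.000984, 8.01e-05 and 0.00505).

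In the interferon output list 9 of 14 genes rose in WT, 7 rose in SCR, 4 rose in KD and 0 fell, beside 7.01%, 8.64% and 6.41% of all genes higher. CXCL10, used with TNF as a check of the LPS label, rose by 6.96 ± 0.28 on the log2 scale in WT, from at most 3.73 CPM to at least 289 CPM (adjusted p = 1.4e-13). IFIT1 rose in WT and SCR (0.39, adjusted p = 0.00651, and 0.48, adjusted p = 0.00147) and gave 0.22 in KD (adjusted p = 0.149). ISG15 did not pass in any condition (adjusted p = 0.131, 0.179 and 0.884). In the DNA-sensing list 2 of 6 genes rose in SCR, beside 8.64% of all genes higher. AIM2, an inflammasome receptor for DNA, rose by 1.56 ± 0.35 (adjusted p = 0.00358) and SAMHD1 by 0.34 ± 0.10 (adjusted p = 0.0215). AIM2 had only 11 to 83 counts per library. In WT and KD 0 of 6 were called by edgeR, beside 14.3% and 11.5% of all genes, and 0 by DESeq2. By edgeR 3 in WT and 0 in KD had an unadjusted p under 0.05.

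Some of the sensors called with LPS varied together over the 18 libraries and others less so. As a description, with points that share the LPS contrast and their library depths, Pearson's r of log2 CPM was 0.90 between IFIH1 and TLR7, 0.88 between IFIH1 and EIF2AK2, and -0.83 between TLR7 and STING1. It was 0.59 between TLR7 and TLR8, 0.61 between IFIH1 and CGAS and 0.37 between TLR7 and CGAS. RIGI and IFIH1, the receptors that share MAVS, gave 0.39. The gene most like EIF2AK2 over all genes tested was DNAJC3 (r = 0.96), followed by LIMA1 and ANKRD17 (0.956 each). For IFIH1 it was PTP4A2 (0.92), for TLR7 DST (0.938), for TLR8 HS3ST3B1 (0.882), for STING1 PNPLA2 (0.941) and for RIGI LINC00173 (0.838). For CGAS the most similar were FTH1P7 (0.977), BAG3 (0.971) and FTH1P5 (0.968); FTH1P7 and FTH1P5 are pseudogenes of the ferritin heavy chain, whose reads may be split with the parent gene. For DHX58, MAVS and TLR3 the highest correlations were lower, at 0.821 with DPH2, 0.762 with AKAP10 and 0.712 with LINC02985.

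**Figure D5:**
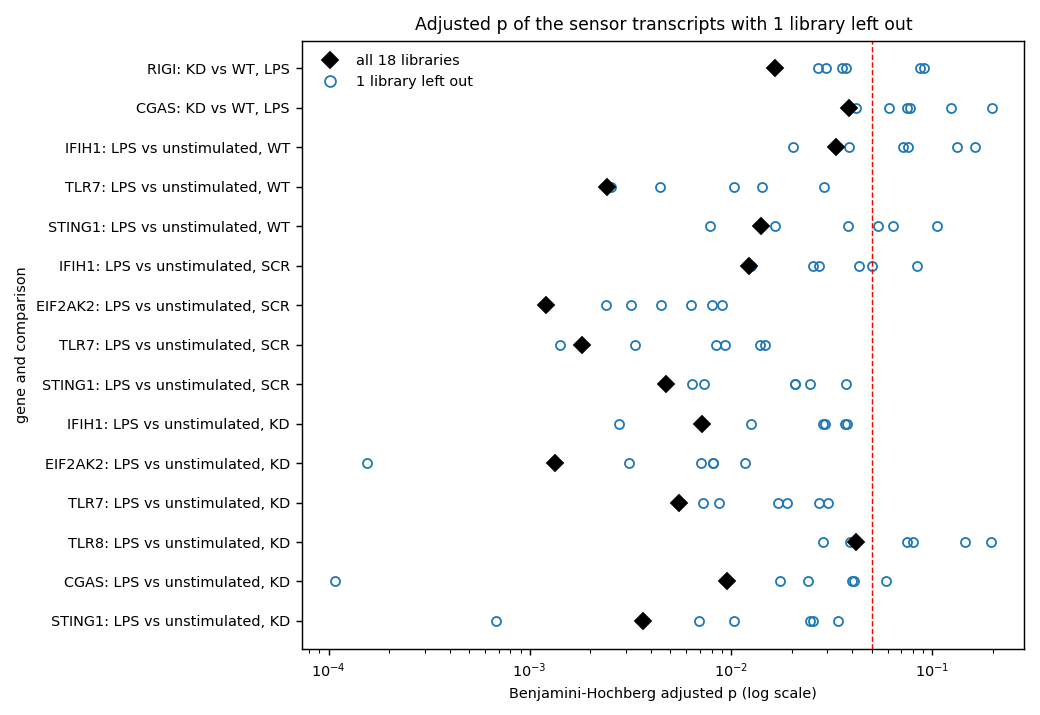
Adjusted p (edgeR, Benjamini-Hochberg, log axis) of the 15 sensor calls with all 18 libraries (black diamonds) and with 1 library left out in turn (blue circles, 6 per row); the red dashed line marks 0.05. For TLR7 and EIF2AK2 every circle lies left of the line, as for STING1 in SCR and KD and IFIH1 in KD, whereas CGAS in KD against WT with LPS crosses it in 5 of 6.

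Of the 15 sensor calls, 8 held without each library in turn, and these 8 also held under every alternative that was run. They were TLR7 in all 3 conditions, EIF2AK2 in SCR and KD, STING1 in SCR and KD, and IFIH1 in KD. All 8 are responses to LPS. Neither call in KD against WT was among them.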

How the data were processed

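Per the labels and the study's methods, the authors made QuantSeq 3′ libraries, aligned reads with HISAT to GRCh37 and counted them per gene with featureCounts, on an Ensembl annotation cut to the last 500 bases of each gene. They deposited 1 table of raw counts. All 18 columns were used. From these counts, 1 mean per group was estimated over the 18 libraries by edgeR 4.0.16 under R 4.3.3 (TMM scaling, filterByExpr by group, quasi-likelihood F test, Benjamini-Hochberg adjustment over 16678 genes, threshold 0.05). Intervals are log2 fold change ± SE with the t distribution of the fit at the 95% level. With 3 libraries against 3, an exact two-sided permutation test cannot go below 0.1. Log2 CPM used a prior count of 2. The fit was tested on simulated data with 200 changed genes. Alternatives were DESeq2 1.42.0, RLE factors, no low-count filter, groups fitted alone, the replicate block and each library left out. The members and lists were chosen with earlier results of these data known. Named were the sensors, TRAFD1, TNF, CXCL10, IFNB1, IFIT1 and ISG15, up to 3 genes per list and comparison with the smallest adjusted p past the threshold, and the 3 genes most correlated with each sensor; GPATCH11 was added after the values were seen. Numbers 1 to 3 and 4 to 6 recur across conditions in the labels. Deviations from group means of equally numbered libraries correlated by 0.261, 0.163 and 0.253 in SCR against WT with LPS. In each other comparison at least 1 pair was under 0.1, although replicate 1 of KD against WT without LPS gave 0.304. Whether the numbers pair libraries was not tested. The values of 1 marker gene are not reported here.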

Additional observations from a re-analysis of the deposited data

Results flagged for a closer look

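CXCL10 and TNF responded less to LPS in SCR than in WT, by an interaction term of edgeR: CXCL10 by -2.08 ± 0.35 on the log2 scale (SE, adjusted p = 0.0074) and TNF by -1.43 ± 0.21 (adjusted p = 0.0021). Both were already higher in SCR than in WT without LPS, and with LPS their levels in SCR and WT did not pass the test (adjusted p = 0.729 and 0.95). Without LPS both were higher in KD than in WT too (adjusted p = 0.0308 for CXCL10 and 1.1e-05 for TNF). No sensor passed the interaction test between SCR and WT.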

How the results depend on the processing

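Of the 152 alternative values of the 15 sensor calls, 128 kept the call, 24 lost it and 0 changed direction. Scaling by RLE factors changed no count of sensors called. Without the filter on low counts, 1 sensor was called in SCR against WT with LPS and 1 in the difference of the LPS response between KD and SCR, CGAS in both. DESeq2 called 1 sensor in KD against WT with LPS. With 1 library left out, the number called ranged from 0 to 2 in KD against WT with LPS, from 0 to 2 without LPS, from 1 to 3 for LPS in WT, from 3 to 4 in SCR and from 4 to 6 in KD, and was 0 throughout in the other comparisons. With the replicate number as a block the sensors called stayed at 0 in SCR against WT and KD against SCR, at 2 in KD against WT with LPS and at 0 without LPS. No paired analysis was possible for LPS against unstimulated because the libraries with and without LPS share no replicate numbers. Fold changes of uncalled sensors crossed 0 when 1 library was left out. In SCR against WT with LPS DHX58 ran from -0.21 to 0.034, IFIH1 from -0.12 to 0.016, TLR7 from -0.42 to 0.12 and TLR8 from -0.23 to 0.55. Without LPS STING1 ran from -0.17 to 0.065 and TLR8 from -0.16 to 0.63, and for LPS in KD RIGI ran from -0.11 to 0.055.

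The count over all genes depended more on the fit. In KD against SCR with LPS it was 0, but 142 by DESeq2, 161 with the groups alone, 425 without the filter and 85 with the block; without LPS it was 11, but 242, 0, 320 and 183. In SCR against WT with LPS it was 19, but 196, 47, 593 and 135, and without LPS 538, but 929 by DESeq2 and 934 with the block. In KD against WT it was 1951 without LPS, but 280 with the groups alone, and 1808 with LPS, but 3235 with the groups alone. For LPS in KD it was 1912, but 847 with the groups alone. For the difference of the LPS response it was 39 between SCR and WT, but 85 by DESeq2 and 241 without the filter, and 0 between KD and SCR, but 3 and 132. With 1 library left out it ranged from 376 to 1428 in KD against WT with LPS, from 962 to 1934 without LPS, from 193 to 510 in SCR against WT without LPS and from 1098 to 3150 for LPS in KD. The causes were not tested.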
